A study of Mus musculus with 8 samples.

Results

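The genes described here make the neutral lipids of skin, and they comprise the fatty acyl-CoA reductases *Far1* and *Far2*, the wax ester synthases *Awat1* and *Awat2*, the diacylglycerol acyltransferases *Dgat1* and *Dgat2*, their relative *Dgat2l6*, the monoacylglycerol acyltransferases *Mogat1* and *Mogat2*, and the lipid droplet coat gene *Plin2*. They were chosen by symbol, and each of the 10 had a row among the 55416 genes of the count table. Libraries of dorsal epidermis were made from mice at postnatal day 4, 4 control libraries and 4 libraries in which *Rora* was deleted in the epidermis (*Rora* EKO). The knockout was made by crossing a *Rora* flox/flox strain with a K14-Cre strain, whose keratin 14 promoter is active in basal keratinocytes and in the hair follicles and sebaceous glands that grow from them. The control libraries are labelled WT, and the Cre and flox alleles of these pups are not given in the labels. The labels do not say whether each library came from a separate pup, so the p-values below measure the spread between these libraries.

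Sebaceous glands fill their cells with wax esters and triglyceride and release them as sebum, which waterproofs hair and skin. For a wax ester, a reductase (FAR1 or FAR2) first turns a fatty acyl-CoA into a fatty alcohol, and a wax synthase (AWAT1 or AWAT2) then joins that alcohol to another acyl-CoA. Triglyceride is closed by DGAT1 or DGAT2, which add the last acyl chain to diacylglycerol, and the diacylglycerol comes either from the glycerol 3-phosphate route or from monoacylglycerol through the MOGAT enzymes. DGAT2 is also known for its role in the barrier of newborn mouse skin. RORα is a nuclear receptor that binds the DNA letters AGGTCA behind a short stretch rich in adenine and thymine.

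The members lie in 2 clusters and 5 separate places of the genome. In GRCm39, *Awat2* (X:99445827-99486323), *Dgat2l6* (X:99568444-99589750) and *Awat1* (X:99615857-99621811) sit within 176 kb of the X chromosome. *Dgat2* (7:98802491-98831991) and *Mogat2* (7:98868291-98887830) together span 85.3 kb of chromosome 7. *Far1* lies at 7:113090023-113170726, *Far2* at 6:147948548-148085069, *Dgat1* at 15:76385083-76396476, *Plin2* at 4:86565912-86588459 and *Mogat1* at 1:78487628-78514810. Genes on the opposite strand overlap *Far1* (*Far1os*), *Far2* (*Far2os1*, *Far2os2* and *Ergic2*), *Dgat1* (*Hsf1*), *Awat2* (*Otud6a*), *Mogat1* (*BC035947*) and *Mogat2* (*Gm45012*), and *Gm61982* overlaps *Dgat2l6* on the same strand. The library kit marks strand, but the strand setting of the counting is not given in the sources used here, so reads of overlapping genes may be shared.

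The 250 bases before the RefSeq gene start were searched for the AGGTCA letters, because the receptor that was deleted binds them. RefSeq promoters (GRCm38.p6) were matched for 7 of the 10 members, with 8 start sites. The letters AGGTCA, on either strand, were present in the window of *Plin2* and in none of the other member windows, against 14.0% of all 32851 promoters of the same length. There they carried a T in front (TAGGTCA), which 2.23% of all promoters hold, 218 bases before the start. The windows of *Plin2*, of the reductase *Far2*, and of *Awat1* and *Dgat2l6* from the X-linked cluster are shown on the gene's strand, 5′ to 3′. Capitals mark matches on either strand of the letters TAGGTCA, of a CCAAT box or of a GC box (letters GGGCGG). A match on the opposite strand appears here as its reverse complement, as does TGACCTA in *Plin2*.
Plin2, chr4:86670060-86670309, minus strand: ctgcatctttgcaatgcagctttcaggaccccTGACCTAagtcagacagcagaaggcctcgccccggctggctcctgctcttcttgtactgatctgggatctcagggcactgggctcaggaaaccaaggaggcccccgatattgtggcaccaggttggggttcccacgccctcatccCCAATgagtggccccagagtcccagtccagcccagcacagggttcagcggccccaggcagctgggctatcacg
Far2, chr6:148047166-148047415, plus strand: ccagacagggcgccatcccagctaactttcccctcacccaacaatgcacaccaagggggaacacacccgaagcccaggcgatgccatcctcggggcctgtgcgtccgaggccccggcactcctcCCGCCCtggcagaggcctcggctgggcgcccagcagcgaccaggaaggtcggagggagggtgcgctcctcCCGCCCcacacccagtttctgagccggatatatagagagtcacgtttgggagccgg
Awat1, chrX:100571997-100572246, plus strand: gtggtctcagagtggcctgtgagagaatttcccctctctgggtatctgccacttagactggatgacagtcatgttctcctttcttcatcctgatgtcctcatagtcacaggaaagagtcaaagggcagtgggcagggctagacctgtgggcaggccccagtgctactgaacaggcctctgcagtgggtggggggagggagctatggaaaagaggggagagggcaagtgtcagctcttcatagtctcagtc
Dgat2l6, chrX:100524588-100524837, plus strand: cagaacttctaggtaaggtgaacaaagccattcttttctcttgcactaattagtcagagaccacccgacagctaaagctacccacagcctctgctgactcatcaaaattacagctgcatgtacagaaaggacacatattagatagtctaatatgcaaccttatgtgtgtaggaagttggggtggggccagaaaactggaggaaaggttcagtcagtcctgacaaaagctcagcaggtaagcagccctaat
These windows differ in base composition. G and C make up 67.2% of the *Far2* window and 61.6% of the *Plin2* window, but 54.8% in *Awat1* and 44.8% in *Dgat2l6*. The window of *Far2* holds GGGCGG at 2 places, and that of *Plin2* holds CCAAT, while the *Awat1* and *Dgat2l6* windows hold neither. CCAAT is present in 33.8% and GGGCGG in 32.7% of all promoters. A match of letters is a description and does not show binding.

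The libraries held 17286903 to 26705533 counts each, and levels are given as CPM, counts scaled to a library of 1000000 on the TMM scale. Spinous keratinocyte markers matched the tissue label, with *Krt1* at 19686 to 52399 CPM, while basal *Krt14*, the gene whose promoter drives Cre, was at 61.1 to 706 CPM. The summed level of 4 spinous markers, almost all of it *Krt1* and *Krt10*, was 37615 to 64587 CPM in control libraries. In *Rora* EKO libraries it was 79712 to 100140 CPM, without overlap, although *Dsg1a* and *Dsc1* overlapped. The tests of edgeR and limma-trend called 0 of the 4 genes (1 had an unadjusted p under 0.05). DESeq2 called 2 and the likelihood ratio test 1, where they called 1031 and 1009 of all 13147 tested genes. *Rora* itself was at 212 ± 66.6 CPM in the 4 control and 196 ± 34.6 CPM (mean ± SD) in the 4 *Rora* EKO libraries. The log2 fold change was −0.11 (SE 0.25, adjusted p = 0.877 by edgeR's quasi-likelihood test), and its counts summed over the whole gene did not separate the genotypes and so do not check the labels. *Xist* was at 416 and 527 CPM in control C1 and C6 and at or below 0.0546 CPM in the other 6 libraries. *Ddx3y* was at 0 CPM in control C1 and C6 and at 15.7 to 24.1 CPM in the other 6. Both libraries with *Xist* are controls, so sex as read from these sex-linked genes is partly confounded with genotype in every comparison below.

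None of the wax ester and triglyceride genes passed the cutoffs between genotypes. Of the 10 members, 8 had enough counts to be tested, and 0 passed an adjusted p of 0.05 with a fold change of 1.5 in edgeR, where 5.51% of the 13147 tested genes passed. None had an unadjusted p under 0.05, and DESeq2, the likelihood ratio test and limma-trend also called 0. Among the tested members 6 lay below and 2 above a log2 fold change of 0, with a median of −0.13 beside −0.04 for all tested genes. This split leaned on single libraries and on the fit. It was 2 below and 6 above (median 0.38) without control A1, and 3 below and 5 above (median 0.12) without *Rora* EKO C2. Without control C1 it was 8 below (median −0.45), and in limma-trend 4 on each side. With *Xist* as a covariate it was 8 below (median −0.35), and without the libraries that hold *Xist* 7 below and 1 above (median −0.30). The genotypes overlapped for all 8, whereas 12.9% of all tested genes had genotypes that did not overlap. The members differed widely, however, in how steady they were within a genotype.

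**Figure D1:**
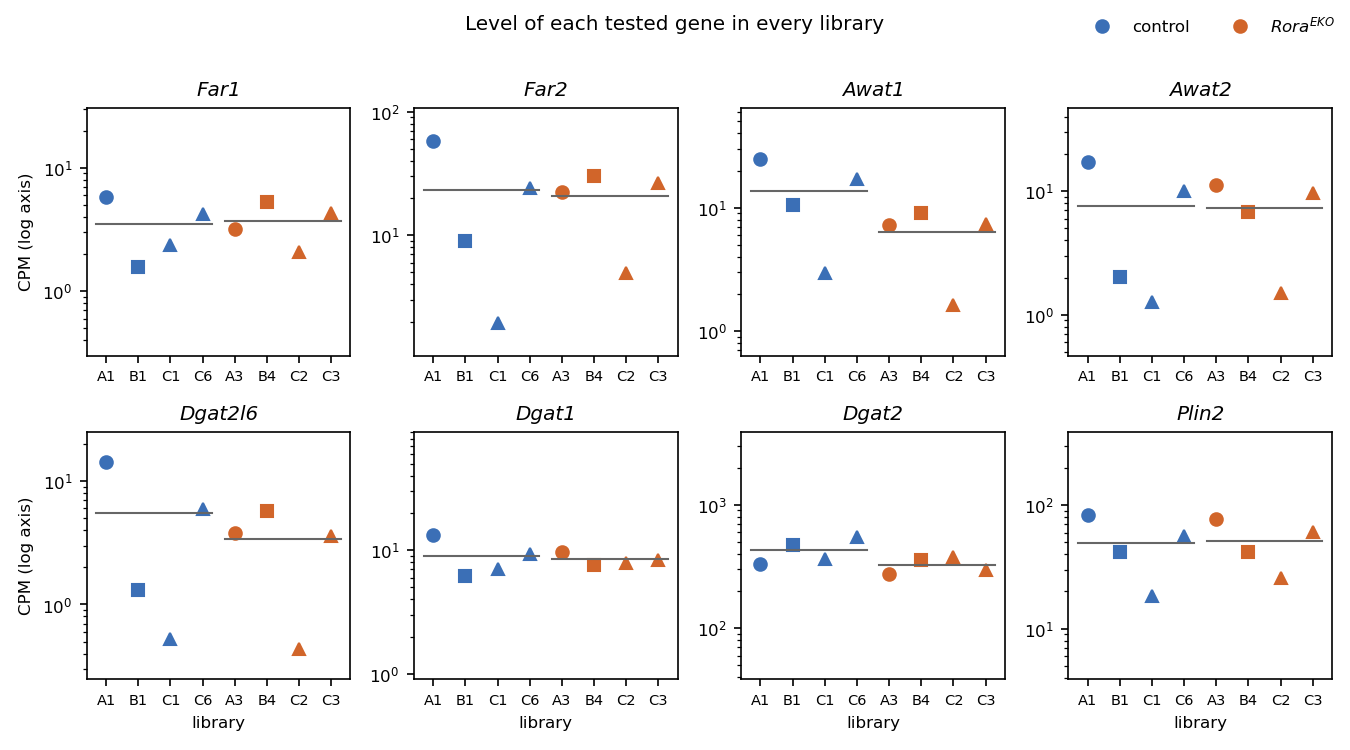
CPM of the 8 tested members in each library (log axis spanning the same 100-fold range in every panel; horizontal lines, genotype means). *Far2*, *Awat1*, *Awat2* and *Dgat2l6* are lowest in control C1 and *Rora* EKO C2, and *Dgat1* and *Dgat2* vary less.

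*Far2*, which makes the long fatty alcohols of sebum and meibum, had the widest range between control libraries among the members. It was at 58.1, 8.96, 1.94 and 24.2 CPM in control A1, B1, C1 and C6, and at 22.5, 29.9, 4.91 and 26.5 CPM in *Rora* EKO A3, B4, C2 and C3. The highest control was 29.9-fold above the lowest, and all 4 *Rora* EKO values lay inside the control range. The means were 23.3 ± 25.0 CPM and 21.0 ± 11.1 CPM (SD over 4 libraries per genotype), and the log2 fold change was −0.16 (SE 1.2, edgeR adjusted p = 0.959). The 95% interval of the difference in limma-trend ran from −1.69 to 2.58 on the log2 scale, around an estimate of 0.45 that differs in sign from edgeR's. Without control A1 the log2 fold change was 0.83 (edgeR adjusted p = 0.594), the opposite direction.

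*Far1*, the broadly expressed reductase that also supplies peroxisomes with alcohol for ether lipids, was a low transcript here. Its level was 5.75, 1.58, 2.37 and 4.20 CPM in the control and 3.20, 5.30, 2.07 and 4.29 CPM in the *Rora* EKO libraries, in the order above. The ranges nearly coincided, and the log2 fold change was 0.09 (SE 0.49, edgeR adjusted p = 0.952).

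*Awat1*, a wax synthase of sebocytes, had the largest log2 fold change among the members in the fit of all 8 libraries, although not in the fit without control A1. The control libraries were at 24.7, 10.4, 2.98 and 17.0 CPM and the *Rora* EKO libraries at 7.31, 9.12, 1.64 and 7.39 CPM. The 3 highest libraries were controls, but control C1 lay below 3 of the 4 *Rora* EKO libraries. The mean was 13.8 ± 9.25 CPM in control and 6.36 ± 3.26 CPM in *Rora* EKO (SD, n = 4 each). This log2 fold change of −1.12 (SE 0.86) did not pass the test (edgeR adjusted p = 0.397, limma-trend 95% interval −2.53 to 0.55). The sample titles carry a first letter (A, B, C) whose meaning is not stated. Within each letter *Awat1* was lower in *Rora* EKO, by log2 differences of −1.74, −0.19 and −1.01. For letter C the libraries of each genotype were averaged, and *Rora* EKO C3 (7.39 CPM) was above control C1 (2.98 CPM). The value leaned on single libraries, being −0.68 without control A1 and −0.73 without *Rora* EKO C2.

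*Awat2*, the main wax synthase of meibomian and sebaceous glands, was at 17.1, 2.02, 1.28 and 10.1 CPM in control and at 11.2, 6.82, 1.49 and 9.69 CPM in *Rora* EKO libraries. Here the *Rora* EKO values lay within the control range, and the log2 fold change was −0.09 (SE 1.09, edgeR adjusted p = 0.981), while limma-trend gave 0.31. *Dgat2l6*, a less studied acyltransferase of the DGAT2 family, lies between both *Awat* genes. It was at 14.3, 1.31, 0.521 and 5.89 CPM in control and at 3.78, 5.67, 0.434 and 3.59 CPM in *Rora* EKO. Its log2 fold change was −0.72 (SE 1.28, edgeR adjusted p = 0.777), and the highest control was 27.4-fold above the lowest. Without control A1 both turned direction, to log2 fold changes of 0.67 for *Awat2* and 0.36 for *Dgat2l6* (edgeR adjusted p = 0.685 and 0.861).

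*Igbp1*, a regulator of protein phosphatase PP2A, lies inside the same X-linked stretch and did not share this spread. It averaged 53.0 CPM in control and 49.0 CPM in *Rora* EKO (log2 fold change −0.11, SE 0.05, edgeR adjusted p = 0.632). The SD of log2 CPM within genotypes was 0.077 for *Igbp1*, against 1.22 for *Awat1*, 1.54 for *Awat2* and 1.81 for *Dgat2l6*. Over all tested genes the median of this SD was 0.30 and its 95th percentile 0.93. The libraries with *Xist*, control C1 and C6, were at the low and the high side for these X-linked genes.

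*Dgat2* was by far the most abundant member. Its level was 331, 474, 363 and 548 CPM in control and 274, 357, 375 and 298 CPM in *Rora* EKO libraries. The 2 highest libraries were controls B1 and C6, and the ranges overlapped between 331 and 375 CPM. The means were 429 ± 101 CPM and 326 ± 47.6 CPM (SD, n = 4 each). The log2 fold change of −0.40 (SE 0.20) did not pass the test (edgeR adjusted p = 0.324, limma-trend 95% interval −0.80 to 0.04). *Dgat2* was lower in *Rora* EKO within each title letter, by log2 differences of −0.27, −0.41 and −0.42. Letter C was again averaged by genotype, and *Rora* EKO C2 (375 CPM) was above control C1 (363 CPM). Its within-genotype SD of log2 CPM was 0.28, near the median over all genes.

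*Dgat1*, the other enzyme of the last triglyceride step, was low. It was at 13.2, 6.18, 7.01 and 9.35 CPM in control and at 9.72, 7.64, 7.90 and 8.39 CPM in *Rora* EKO libraries. Only control A1 stood above the *Rora* EKO range, and the log2 fold change was −0.09 (SE 0.25, edgeR adjusted p = 0.908, limma-trend 95% interval −0.55 to 0.49).

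The monoacylglycerol acyltransferase genes had few or no counts. *Mogat1* had 0, 1, 0 and 3 counts in control and 0, 4, 1 and 3 counts in *Rora* EKO libraries, and *Mogat2*, the intestinal form, had 0 counts in all 8. A floor of 3 counts corresponds to 0.113 to 0.196 CPM in these libraries and covers counting error only. Thus *Mogat2* was not detectable at this depth, and *Mogat1* was above the floor in 1 library only.

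*Plin2*, whose protein coats lipid droplets, was at 82.8, 42.0, 18.4 and 56.1 CPM in control and at 77.7, 41.5, 25.9 and 60.6 CPM in *Rora* EKO libraries. The order of the libraries was alike in both genotypes by letter, with A highest and a C library lowest. The log2 fold change was 0.04 (SE 0.57, edgeR adjusted p = 0.984, limma-trend 95% interval −0.91 to 1.16).

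Per kilobase of the canonical transcript, the control level of *Dgat2* was 161 ± 37.7 CPM per kb (SD, n = 4). *Plin2* followed at 24.3 ± 13.1, and *Awat1* at 9.91 ± 6.65 CPM per kb. *Far2* was at 6.32 ± 6.78, *Dgat1* at 4.74 ± 1.68, *Awat2* at 4.66 ± 4.57 and *Dgat2l6* at 3.35 ± 3.85 CPM per kb. These means lay close together beside the spread between libraries, but that spread does not judge the order of genes within a library. The count of *Awat2* was above that of *Dgat2l6* in every library, by 1.2- to 2.5-fold in control and 1.2- to 3.4-fold in *Rora* EKO. Other orders within libraries were not tested. *Far1* stood at 0.672 ± 0.362 and *Mogat1* at 0.0337 CPM per kb. In *Rora* EKO libraries *Dgat2* was at 122 ± 17.8 and *Awat1* at 4.58 ± 2.35 CPM per kb.

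**Figure D2:**
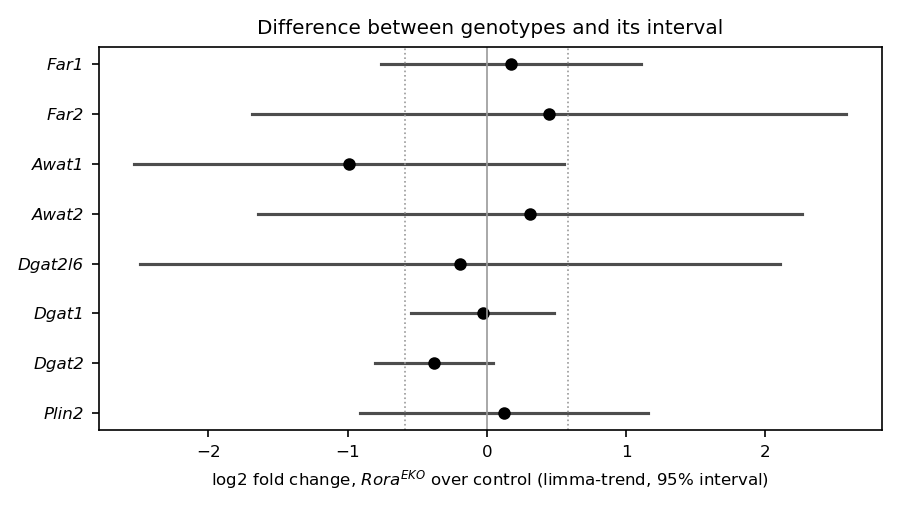
Log2 fold change of *Rora* EKO over control for each tested member from limma-trend (points) with 95% intervals (bars); dotted lines mark a 1.5-fold change. All 8 intervals include 0, and those of *Far2*, *Awat1*, *Awat2* and *Dgat2l6* are the widest, from −1.69 to 2.58 for *Far2*, against −0.80 to 0.04 for *Dgat2*.

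Among the sebaceous members, the spread of *Far2*, *Awat2* and *Dgat2l6* went with other sebocyte genes, and that of *Awat1* did so less steadily. The mean log2 CPM of 9 sebocyte markers that are not members (*Scd1*, *Pparg*, *Mc5r*, *Cidea*, *Krt79*, *Elovl3*, *Mgst1*, *Soat1* and *Fa2h*) was 5.34, 3.48, 2.53 and 3.52 in control A1, B1, C1 and C6 and 4.59, 4.26, 2.54 and 4.30 in *Rora* EKO A3, B4, C2 and C3. The summed CPM of *Far2*, *Awat1*, *Awat2* and *Dgat2l6* was 114, 22.7, 6.72 and 57.2 in control and 44.8, 51.5, 8.48 and 47.2 in *Rora* EKO libraries. Both were lowest in control C1 and *Rora* EKO C2 and highest in control A1. Of the sebocyte markers 0 of 9 passed the cutoffs in edgeR (0 at an unadjusted p under 0.05, and 0 in DESeq2, the likelihood ratio test and limma-trend), and their summed level was 339 to 1168 CPM in control and 209 to 796 CPM in *Rora* EKO libraries. In bulk epidermis, fewer sebocytes and less RNA per sebocyte cannot be told apart.

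**Figure D3:**
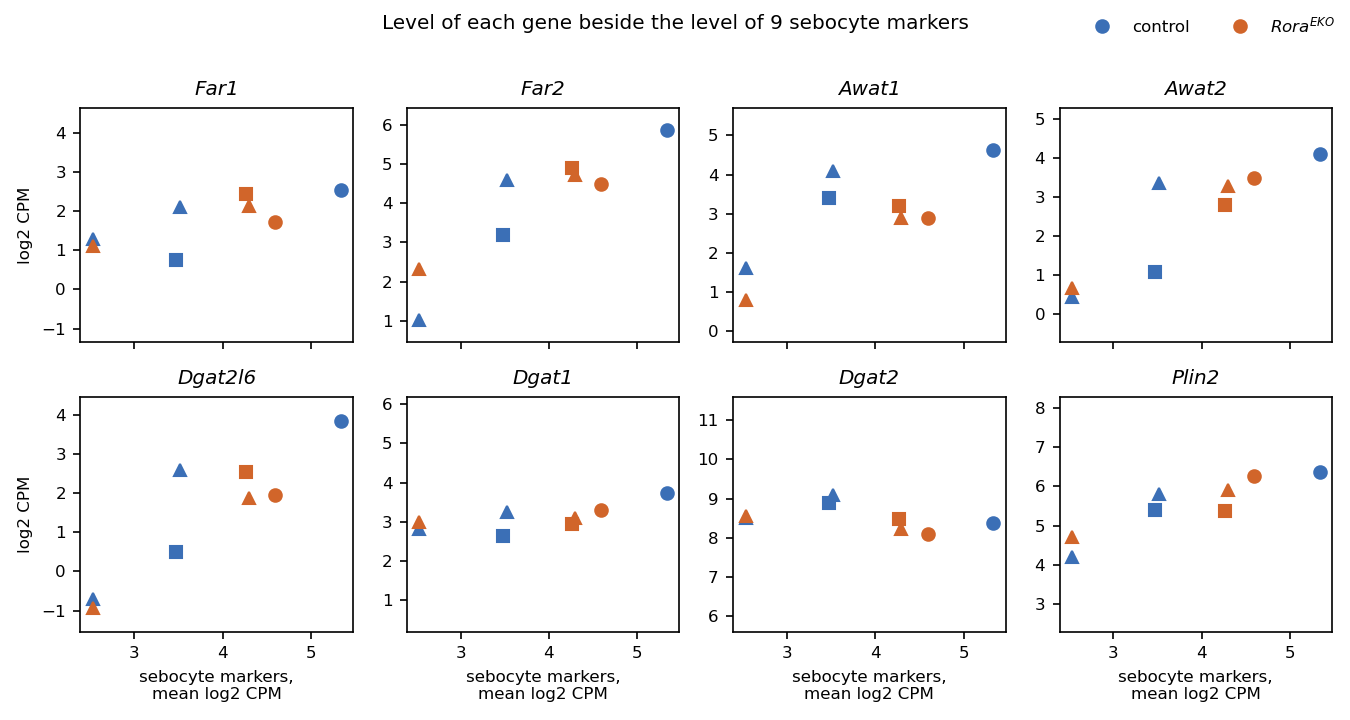
Log2 CPM of each tested member against the mean log2 CPM of 9 sebocyte markers, 1 point per library (blue, control; orange, *Rora* EKO; circles, squares and triangles, title letters A, B and C; every panel spans 6 log2 units). *Far2*, *Awat2*, *Dgat2l6* and *Plin2* rise with the markers (Pearson's r 0.914, 0.897, 0.904 and 0.903), and *Dgat2* does not (r −0.45).

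Over the 8 libraries, the log2 CPM of *Awat2* had a Pearson's r of 0.897 with the sebocyte markers (exact permutation p = 0.00174) and a Spearman's rho of 0.929 (exact permutation p = 0.00223). These were adjusted over the 8 members to p = 0.00675 and p = 0.00893 by exact permutation. *Plin2* had an r of 0.903 (exact permutation p = 0.00253, adjusted 0.00675) and a rho of 0.929 (exact permutation p = 0.00223, adjusted 0.00893). *Far2* had an r of 0.914 (exact permutation p = 0.00233, adjusted 0.00675) and a rho of 0.833 (exact permutation p = 0.0154, adjusted 0.0410). *Dgat2l6* had an r of 0.904 (exact permutation p = 0.00377, adjusted 0.00754) and a rho of 0.762 (exact permutation p = 0.0368, adjusted 0.0588). Without control A1 and C1, the libraries farthest from the median marker level, r was still 0.815, 0.837, 0.861 and 0.790 for these genes. *Rora* EKO C2 had nearly the same marker level as control C1, and without control A1 and *Rora* EKO C2 r was 0.83, 0.865, 0.882 and 0.780. Without all 3 libraries only 5 remain, too few for a correlation to be given, and among them each of these relations was weaker. As deviations from the genotype means, r was 0.896, 0.902, 0.913 and 0.918.

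For *Awat1* the pooled r was 0.765 (exact permutation p = 0.0275, adjusted 0.0441) and rho 0.524 (exact permutation p = 0.197, adjusted 0.197). It fell to 0.546 without control A1 and C1, and to 0.412 without control A1 and *Rora* EKO C2. Without all of these libraries too few remain for a correlation to be given, and among them the relation of *Awat1* turned negative. As deviations from the genotype means, r for *Awat1* was 0.903. *Far1* had an r of 0.732 and a rho of 0.738 (exact permutation p = 0.0453 and 0.0458, adjusted 0.0518 and 0.0611), and *Dgat1* an r of 0.712 and a rho of 0.786 (exact permutation p = 0.0428 and 0.0279, adjusted 0.0518 and 0.0559). Their r fell to 0.609 and 0.349 without control A1 and C1, and to 0.540 and 0.554 without control A1 and *Rora* EKO C2. *Dgat2* had an r of −0.45 (exact permutation p = 0.261, adjusted 0.261) and a rho of −0.69 (exact permutation p = 0.0694, adjusted 0.0793). Its r was −0.56 without control A1 and C1, and −0.52 without control A1 and *Rora* EKO C2.

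Other cell types moved with these levels in part. The summed level of 5 hair shaft keratins (*Krt31*, *Krt33a*, *Krt81*, *Krt85* and *Krt86*) was also highest in the A libraries, at 7182 CPM in control A1 and 6132 CPM in *Rora* EKO A3, against 1853 to 4773 CPM in the others. The summed level of 9 adipocyte markers was 94.5 to 404 CPM in control, highest in A1, and 172 to 252 CPM in *Rora* EKO libraries, and nearly all of it came from *Fabp4* (59.2 to 299 CPM) and *Lipe* (33.0 to 110 CPM), which other cells also express. *Retn* reached 1.33 CPM in control A1 and 1.44 CPM in *Rora* EKO A3, and *Plin4* reached 5.60 CPM in control A1. The 5 others were low, with *Adipoq* at or below 0.193 CPM, *Plin1* at or below 0.145 CPM, *Cidec* at or below 0.247 CPM, *Cfd* at or below 0.55 CPM and *Lep* at or below 0.0482 CPM. The part of hair follicle and adipocyte content in the spread of the members was not tested.

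Within a library, the ratio of *Awat1* to *Far2* and to *Awat2* was lower in each *Rora* EKO library than in any control. This was noticed in the data and then computed for all 28 pairs of tested members. The count of *Awat1* over that of *Far2* was 0.424, 1.16, 1.54 and 0.702 in control and 0.325, 0.305, 0.333 and 0.279 in *Rora* EKO libraries. Every *Rora* EKO library was below every control, the *Rora* EKO ratios were close to each other, and the log2 difference was −1.46 (SE 0.41). *Awat1* over *Awat2* was 1.44, 5.16, 2.33 and 1.68 in control and 0.655, 1.34, 1.10 and 0.763 in *Rora* EKO libraries, again without overlap, with a log2 difference of −1.33 (SE 0.47). *Far2* over *Awat2*, by contrast, ran from 1.52 to 4.43 in control and from 2.02 to 4.39 in *Rora* EKO libraries. The exact two-sided permutation p was 0.0286 for each of both *Awat1* ratios, the smallest that 4 against 4 libraries allow, and 0.4 after adjustment over the 28 pairs, so neither passed. Of the 28 pairs 2 were separated, where 12.9% of single tested genes had genotypes that did not overlap. The share of separated pairs among all tested genes was not computed. Both separated pairs were among the 7 that contain *Awat1*, and these pairs share its counts. A fit with the sebocyte marker level as a covariate was added after the data were seen. In it the log2 fold change of *Awat1* was −1.29 (edgeR adjusted p = 0.0483), which is past the cutoffs. Without the covariate 725 of all 13147 tested genes passed, and with it 931 did. Over the 22 alternatives of *Awat1* the adjusted p ran from 0.0483 to 0.652. The other 7 tested members did not pass in the covariate fit.

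**Figure D4:**
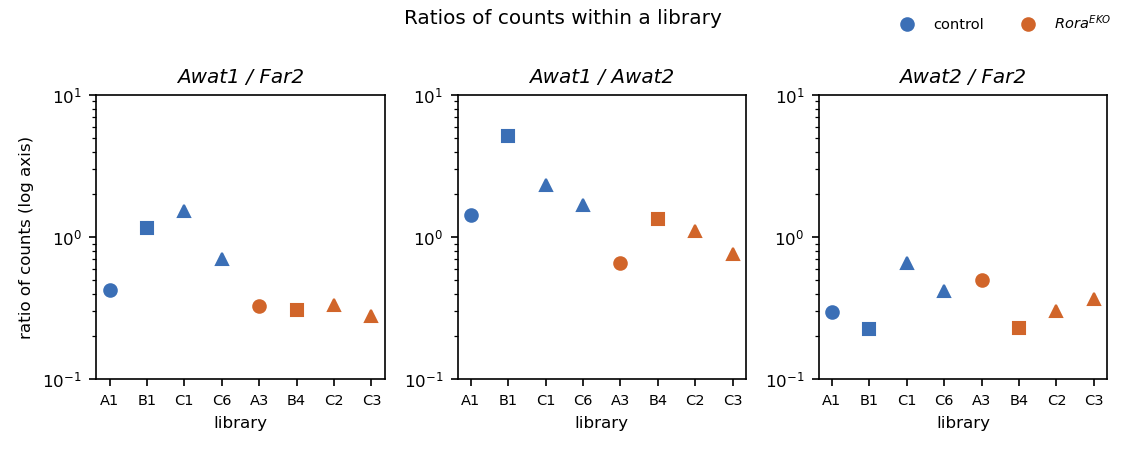
Ratios of counts between members within each library (log axis; blue, control; orange, *Rora* EKO; symbols by title letter). *Awat1* over *Far2* is 0.424 to 1.54 in control and 0.279 to 0.333 in *Rora* EKO libraries, *Awat1* over *Awat2* separates the genotypes too, and *Awat2* over *Far2* overlaps.

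The tested genes whose log2 CPM was most like each member over the 8 libraries included several lipid genes for the sebaceous members. *Far2* was most like *Gpd1*, which makes glycerol 3-phosphate (r 0.992), followed by *Panx3* (0.974) and the droplet protein gene *Cidea* (0.973). *Awat1* was most like the desaturase gene *Scd1* (r 0.974), then *Rab11bos1* (0.953) and *Gpatch1* (0.922). *Awat2* was most like *Acacb*, an acetyl-CoA carboxylase (0.968), *Ces1d*, a carboxylesterase that hydrolyses triglyceride (0.960), and *Dgat2l6* (0.95). *Dgat2l6* was most like *N4bp2os* (0.979), *Grik3* (0.968) and *Acacb* (0.962). *Plin2* was most like *Serpina3b* (0.974), the peroxisomal thiolase gene *Acaa1b* (0.972) and *Slc9a8* (0.971). The nearest genes to *Dgat2* were *Mex3c* (0.986), *Spryd7* (0.969) and *Add3* (0.968), to *Dgat1* *Crebrf* (0.951), *Nek8* (0.946) and *Klhdc8b* (0.942), and to *Far1* *Styk1* (0.968), *Prps1l3* (0.961) and *Ufsp2* (0.922). With 8 libraries and 13147 genes, high values arise easily, and these are given as a description.

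In the 5 lists of genes around the members, 3 of the 44 tested genes fell in *Rora* EKO and 0 rose, a share near the 5.51% called among all tested genes, of which 302 were higher and 423 lower. On the glycerol 3-phosphate route, 1 of 11 tested genes fell and 0 rose, where 5.51% of all tested genes passed in either direction. This was *Agpat5*, an acyltransferase that makes phosphatidic acid and in control the most abundant gene of its list. It was at 266, 310, 288 and 473 CPM in control and at 79.3, 47.0, 140 and 101 CPM in *Rora* EKO libraries, without overlap (log2 fold change −1.86, SE 0.38, edgeR adjusted p = 0.00865). *Gpat3*, which starts the route, was at 13.5 ± 4.53 CPM in control and 22.5 ± 3.26 CPM in *Rora* EKO (SD over 4 libraries), also without overlap. Its log2 fold change of 0.74 missed the cutoff (edgeR adjusted p = 0.0913). The list's median log2 fold change was 0.17.

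Fatty alcohols that are not esterified to wax are oxidised or built into ether lipids, and 2 of 7 tested genes of that list fell and 0 rose, beside 5.51% called among all tested genes. *Peds1*, the desaturase that makes plasmalogens, was at 86.9, 95.1, 68.5 and 98.8 CPM in control and at 44.6, 34.5, 39.3 and 39.4 CPM in *Rora* EKO libraries (log2 fold change −1.15, SE 0.14, edgeR adjusted p = 0.00172). *Selenoi*, an ethanolamine phosphotransferase that completes ether phospholipids, was at 39.9, 55.6, 64.2 and 75.7 CPM in control and at 23.2, 26.7, 29.6 and 24.8 CPM in *Rora* EKO libraries (log2 fold change −1.17, SE 0.21, edgeR adjusted p = 0.00643). Neither gene's libraries overlapped between genotypes, as was so for 12.9% of all tested genes. *Aldh3a2*, which oxidises fatty aldehyde, did not overlap either but missed the cutoff, at 48.6 ± 18.8 CPM and 26.9 ± 6.39 CPM (SD over 4 libraries; log2 difference −0.85, edgeR adjusted p = 0.104). With the title letter as a block it passed (log2 fold change −0.85, edgeR adjusted p = 0.0226). The list's median log2 fold change was −0.46. Without both libraries that hold *Xist*, *Peds1* still passed (log2 fold change −1.16, edgeR adjusted p = 0.00902), and *Agpat5* and *Selenoi* did not (log2 fold changes −1.60 and −0.82, edgeR adjusted p = 0.0609 and 0.0582).

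No gene passed the cutoffs in the 3 other lists. Of the triglyceride lipolysis genes 0 of 9 passed in edgeR (0 at an unadjusted p under 0.05), led in level by *Lipm*, an epidermal lipase, at 360 and 363 CPM in control and *Rora* EKO. Of the droplet coat and assembly genes 0 of 6 passed (1 at an unadjusted p under 0.05), led by seipin, *Bscl2*, at 91.2 and 83.9 CPM. Of the desaturation, elongation and sterol esterification genes 0 of 11 passed (2 at an unadjusted p under 0.05), led by *Elovl4*, which extends very long acyl chains, at 784 and 823 CPM. DESeq2, the likelihood ratio test and limma-trend called 0 in each of these lists as well. Their median log2 fold changes were 0.03, 0.08 and −0.07.

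**Figure D5:**
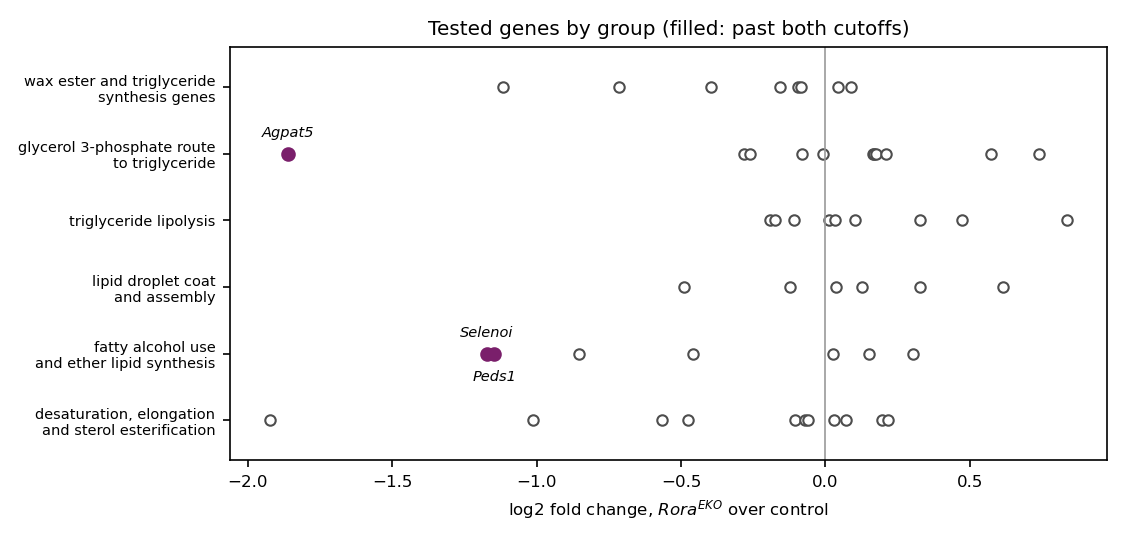
Log2 fold change (edgeR, *Rora* EKO over control) of each tested gene, 1 point per gene, for the 8 members and the 5 surrounding lists; filled points passed both cutoffs. *Agpat5*, *Selenoi* and *Peds1* are filled, at −1.86, −1.17 and −1.15, and 0 of the 8 members are.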

How the data were processed

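RNA was taken from epidermis peeled off the heat-treated back skin of pups, and stranded, polyA-enriched libraries were sequenced as read pairs. Reads were mapped by the authors to GRCm39 with STAR 2.5.3a, and the authors deposited RSEM expected counts per gene, not scaled for library size or gene length. The annotation release is not given in the sources used here. Of the 55416 identifiers, 54749 had a symbol in GENCODE release M39. The deposited expected counts were rounded, cut to 13147 genes by filterByExpr and scaled by TMM. Genotypes were compared in R 4.3.3 with edgeR 4.0.16 (quasi-likelihood F-test, legacy form), without covariates and with Benjamini-Hochberg adjustment. Each SE was computed from the log2 CPM values (prior count 2) of both genotypes. The 95% intervals come from limma-trend (limma 3.58.1). The header holds 8 sample titles with a trailing tab over 9 columns, so the titles were read in order onto the 8 count columns, and genotypes came from the labels.

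The text names every member, the list genes past the cutoffs, the most abundant gene of each list and the 3 genes most like each member; *Gpat3* and *Aldh3a2* were added after their values were seen. The members and lists were chosen with earlier results of these data known. 1 sebocyte marker of the list is not reported here. Alternatives comprised RLE factors, library size alone, DESeq2 1.42.0, other edgeR tests, filters and cutoffs, the title letter as a block, *Xist* as a covariate or its libraries left out, and each library left out. The limma-trend fit, the sebocyte covariate, the fit without control A1 and C1, and the ratios were added after the data were seen. Plots were drawn with matplotlib 3.10.9.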

Additional observations from a re-analysis of the deposited data

How the results depend on the processing

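The count of members past the cutoffs was 0 in 23 of 24 alternatives and 1 (*Awat1*, lower) with the sebocyte markers as a covariate. That covariate fit called 931 of all 13147 tested genes. *Awat1* and *Dgat2* were below 0 in all 22 alternatives of the fit, with log2 fold changes from −1.46 to −0.68 and from −0.65 to −0.23. The sign of the other tested members, none of them called, turned in 1 (*Dgat2l6*) to 8 (*Plin2*) alternatives. The count of genes past the cutoffs was 725, against 1031 with DESeq2 and 1009 with the likelihood ratio test. It was 472 with *Xist* as a covariate and 314 without the libraries that hold *Xist*. When each library was left out it was 457 to 896, lowest without control B1 (457) and *Rora* EKO C3 (475) and highest without control A1 (896). For the surrounding lists, 3 genes passed, against 5 with DESeq2, the likelihood ratio test or the sebocyte covariate, 1 without the libraries that hold *Xist*, and 3 to 5 when each library was left out, highest without control A1. The added genes were *Gpat3* and *Aldh3a2* in DESeq2 and the likelihood ratio test, *Scd3* and *Mgll* with the covariate, *Gpat3* and *Gpat2* without control A1, and *Plin4* without control C1 (4 genes). *Gpat2* and *Plin4* passed the filter only through the control libraries, once the control lowest for each was left out, so their calls carry no weight. The causes were not tested. Left out in turn, libraries moved the log2 difference of *Awat1* over *Far2* between −1.80 and −1.18 and that of *Awat1* over *Awat2* between −1.56 and −0.94. With 4 libraries per genotype and within-genotype SDs over 1 log2 unit, 2-fold lower levels of *Far2*, *Awat1*, *Awat2* and *Dgat2l6* lie inside the 95% intervals. The groups share title letters but no replicate numbers, and with the letter as a block 0 members, 999 genes in all and 4 list genes passed, *Aldh3a2* being added.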

Other observations

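*Plin4*, a droplet coat gene below the filter on low counts, was at 5.60, 0.437, 0 and 2.06 CPM in control A1, B1, C1 and C6, and at 0.196, 0.0411, 0.0964 and 0.150 CPM in *Rora* EKO A3, B4, C2 and C3. The 3 control libraries with counts were above every *Rora* EKO library, and control C1 had none. *Gpat2*, the testis-type acyltransferase of the glycerol 3-phosphate route, was also untested, with 6, 16, 15 and 19 counts in control and 0, 5, 1 and 3 counts in *Rora* EKO libraries, so that the nearest libraries differed by 1 count, within counting error. Both were named after their values were seen.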
